A study of Mus musculus with 15 samples.

Results

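The 9 genes of nonessential amino acid and glutamine metabolism described here, of 29072 genes with a symbol in the deposited table, were followed in mouse brown preadipocytes treated with fibroblast growth factors (FGFs). They were named by function, with earlier results of these data known, and found by symbol: Asns, Gpt2, Got1, Pycr1, Aldh18a1, Pck2, Bcat1, Glul and Glud1. The table lists several transcripts per gene, and each gene was read from its line with the highest mean over the 15 libraries. All 9 passed the filter on low values and belonged to the 13869 genes tested. The cells were precursors of brown fat, isolated with other stromal-vascular cells from interscapular brown fat of 129SvEv mice and immortalised with the SV40 large T antigen, so every group carried that oncogene. The 5 groups of 3 libraries were FGF8b (5.56 nM) plus BAY-876 (2 µM), an inhibitor of the glucose transporter GLUT1, then FGF9 (5.56 nM), FGF8b (5.56 nM), FGF1 (5.56 nM) and control cells whose label names no agent. Treatment lasted 48 h, and the series text gives heparin, a sulfated sugar chain that helps FGFs bind their receptors, at 1 µg/ml to the FGF-treated cells, while the sample labels name it for FGF9 alone. Neither heparin nor BAY-876 was given by itself to any group. Whether control cells had heparin is not stated, and the labels name no separate cultures, cell lines or batches behind replicates. The p-values therefore measure the spread between these libraries, which may be technical.

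Cells make the nonessential amino acids from intermediates of glycolysis and the citrate cycle, with glutamate as the main nitrogen donor. Asns, Gpt2 and Got1 hand nitrogen to or from asparagine, alanine and aspartate. Aldh18a1 and Pycr1 turn glutamate into proline, and Bcat1 makes glutamate from branched-chain amino acids. Glul and Glud1 join ammonia to glutamate or release it, and Pck2 sends mitochondrial oxaloacetate to phosphoenolpyruvate. Several of these genes are textbook targets of ATF4, a transcription factor made during amino acid shortage and other stresses, which binds a composite element known as the C/EBP-ATF response element.

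The promoters are shown because 7 of the 9 genes rose together below, and because 4 of the 9 held the core of that element. Each promoter window was the 300 bases from 250 before to 50 after the start site in RefSeq, build GRCm38.p6, read along the gene's strand, and all 9 genes had one (Bcat1 had 2). The core was searched as TGATGNAAN, with any base at N, on both strands. It was found once each in Asns, Got1, Pycr1 and Pck2, and in 1215 of the 27025 genes with such a window. Of 45 other genes of these pathways, described further below, 34 could be matched to a window, and 0 of them held the core. The following windows give the match in capitals, and in Got1 and Pck2 the match is on the opposite strand, so that its reverse complement is printed. They lie at chr6:7693160-7693459 (minus strand) for Asns, chr19:43524556-43524855 (minus strand) for Got1, chr11:120643699-120643998 (minus strand) for Pycr1 and chr14:55540016-55540315 (plus strand) for Pck2.

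Asns: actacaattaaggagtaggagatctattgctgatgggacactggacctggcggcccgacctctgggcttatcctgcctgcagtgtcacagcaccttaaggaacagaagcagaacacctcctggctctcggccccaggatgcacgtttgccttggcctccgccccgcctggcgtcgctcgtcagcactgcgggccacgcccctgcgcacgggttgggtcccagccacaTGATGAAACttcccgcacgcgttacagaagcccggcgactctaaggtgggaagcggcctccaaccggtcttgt
Got1: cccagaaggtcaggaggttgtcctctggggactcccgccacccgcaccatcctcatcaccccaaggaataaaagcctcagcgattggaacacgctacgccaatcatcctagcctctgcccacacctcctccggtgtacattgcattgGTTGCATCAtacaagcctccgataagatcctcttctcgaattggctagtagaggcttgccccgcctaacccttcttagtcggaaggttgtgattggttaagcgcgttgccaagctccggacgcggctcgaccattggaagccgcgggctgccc
Pycr1: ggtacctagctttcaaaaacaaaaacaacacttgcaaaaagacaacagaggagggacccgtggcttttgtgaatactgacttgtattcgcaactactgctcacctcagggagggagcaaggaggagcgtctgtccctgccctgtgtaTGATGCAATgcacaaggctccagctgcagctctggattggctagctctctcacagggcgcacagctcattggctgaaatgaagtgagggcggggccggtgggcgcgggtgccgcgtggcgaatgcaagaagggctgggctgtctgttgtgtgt
Pck2: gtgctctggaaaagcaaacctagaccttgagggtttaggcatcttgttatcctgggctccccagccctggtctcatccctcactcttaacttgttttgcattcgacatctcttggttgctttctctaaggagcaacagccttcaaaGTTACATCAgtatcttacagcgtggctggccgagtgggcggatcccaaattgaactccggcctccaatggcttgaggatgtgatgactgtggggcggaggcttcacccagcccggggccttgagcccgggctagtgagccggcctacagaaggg

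Read along the motif's own strand, the matched letters were TGATGAAAC in Asns, TGATGCAAC in Got1, TGATGCAAT in Pycr1 and TGATGTAAC in Pck2. The match began 23 bases before the RefSeq start site in Asns, 103 before it in Got1 and Pycr1, and 104 before it in Pck2. In GENCODE, another gene annotation, Asns runs to 7693254 on the minus strand. Its match, at 7693224 to 7693232, thus lies inside the gene as annotated there. The windows of Gpt2, Aldh18a1, Bcat1, Glul and Glud1 did not hold these letters. TGACGTCA, the cAMP response element, a palindrome that shares no full match with the first motif, was in none of the 9 and in 549 of the 27025 genes. A match is a run of letters and was not tested as a binding site.

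**Figure D1:**
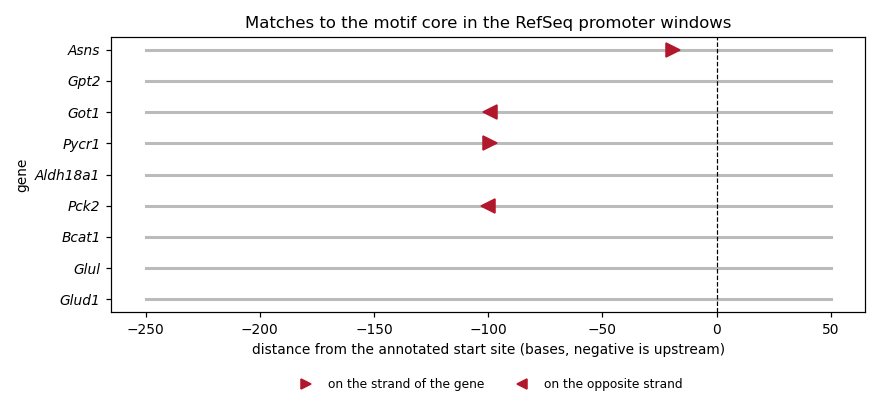
Position of each match to the core TGATGNAAN (triangles, pointing along the strand that holds it) in the promoter window of each gene (grey lines, in bases from the start site annotated in RefSeq at the dashed line). Asns, Got1, Pycr1 and Pck2 have 1 match each, and those of Got1, Pycr1 and Pck2 begin 103 to 104 bases upstream.

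Depth worked out from the values was 27.01 to 42.64 M reads per library, and libraries of a group correlated at 0.9913 to 0.9967 across genes, which are not independent replicates. Levels are in RPKM, that is, reads scaled to transcript length and to library depth. The defining markers of mature adipocytes (Adipoq, at most 0.0768 RPKM), macrophages (Ptprc, at most 0.0128), endothelium (Cdh5, at most 0.076) and skeletal muscle (Myog, 0 in every library) were at or near 0. The summed level of 10 preadipocyte and fibroblast markers was 136 to 142 RPKM in FGF8b plus BAY-876, 328 to 378 in FGF9, 333 to 392 in FGF8b, 1160 to 1200 in FGF1 and 1820 to 2100 in control. With FGF8b against control 8 of the 10 passed an adjusted p of 0.05 in limma downward, and 2 upward (Lum and Ebf2). The shares of all genes were 26.6% downward and 37.8% upward. This list thus moved with the groups, and its part in the results below was not tested. The 6 mature adipocyte markers summed to 5.47 to 6.43 RPKM in FGF8b plus BAY-876, 40.8 to 48.2 in FGF9, 32.7 to 35.5 in FGF8b, 7.41 to 9.27 in FGF1 and 5.03 to 6.69 in control; the thermogenic Ucp1 averaged 26.7 in FGF8b and 0.0226 in control. The 4 endothelial markers summed to 0.752 to 0.921 RPKM in FGF8b plus BAY-876, 0.327 to 0.515 in FGF9, 0.391 to 0.545 in FGF8b, 1.67 to 1.68 in FGF1 and 7.45 to 8.86 in control, and the parts of both lists in the results were not tested either. The macrophage list (4 of 5 in the table) summed to 4.93 to 6.09 RPKM in FGF8b plus BAY-876, 3.83 to 5.45 in FGF9, 4.15 to 4.46 in FGF8b, 3.46 to 4.10 in FGF1 and 2.89 to 4.13 in control. The skeletal muscle list of 5 summed to 5.51 to 7.38 RPKM in FGF8b plus BAY-876, 4.61 to 5.26 in FGF9, 3.99 to 5.45 in FGF8b, 7.11 to 8.45 in FGF1 and 4.81 to 5.33 in control. The parts of these lists were not tested. In RNA from whole cultures, more transcript per cell and more cells that hold the transcript cannot be told apart.

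FGF8b and FGF9 were each compared with control. With each of them, Asns, Gpt2, Got1, Pycr1, Aldh18a1, Pck2 and Bcat1 rose (7 of the 9), Glud1 fell, and Glul did not pass the threshold, an adjusted p of 0.05. The median log2 change of the 9 was 1.78 with FGF8b and 1.80 with FGF9, beside 0.08 and 0.09 over all genes tested. In limma, 37.8% of all genes passed upward and 26.6% downward with FGF8b, and 38.7% and 27.0% with FGF9. Because the 9 were chosen with earlier results of these data known, these figures are set side by side as a description. With trimmed-mean scaling the numbers over all genes were 4351 upward and 4366 downward with FGF8b and 4457 and 4414 with FGF9 (5238 and 3693, and 5369 and 3739, without it), while the 9 genes gave the same counts. Both comparisons use the same control libraries, so their results are not independent of each other. Changes are log2 fold changes of RPKM + 0.5 ± SE, with p adjusted over all genes tested.

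Gpt2 and Asns had the largest changes of the 9. Asns encodes asparagine synthetase, which moves the amide nitrogen of glutamine onto aspartate (chromosome 6, 7675169 to 7693254, GRCm38). It stood at 173.2, 150.7 and 164.4 RPKM in the FGF9 libraries and at 160.4, 156 and 160.5 in the FGF8b libraries, against 16.8, 16.2 and 18.1 in control. The lowest treated library was above every control library. The change was 3.22 ± 0.065 with FGF9 (adjusted p = 2.07e-15) and 3.19 ± 0.065 with FGF8b (adjusted p = 2.90e-15), or 9.57 and 9.35 times the control mean. Gpt2, the mitochondrial alanine aminotransferase (chromosome 8, 85492576 to 85527560), started from a low level. It reached 43.4, 50.3 and 45.9 RPKM with FGF9 and 40.5, 42.6 and 40.6 with FGF8b, against 3.58, 3.32 and 3.55 in control. Those groups did not overlap with control, and the change was 3.56 ± 0.092 with FGF9 (adjusted p = 3.27e-14) and 3.39 ± 0.092 with FGF8b (adjusted p = 6.22e-14).

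The other aminotransferases rose less. Bcat1, the cytosolic branched-chain aminotransferase (chromosome 6, 144993835 to 145076184), was at 93.8, 98.4 and 101.3 RPKM with FGF9 and 103.6, 89.6 and 95.7 with FGF8b, against 26.4, 26.6 and 25.9 in control. Every treated library lay above every control library. Its change was 1.87 ± 0.058 with FGF9 (adjusted p = 2.18e-13) and 1.85 ± 0.058 with FGF8b (adjusted p = 2.86e-13). Got1, the cytosolic aspartate aminotransferase (chromosome 19, 43499752 to 43524605), had 43.8, 41.7 and 43 RPKM with FGF9 and 45.6, 38.5 and 41.1 with FGF8b, against 17.7, 16.4 and 15 in control. Its groups did not overlap with control, and the change was 1.36 ± 0.067 with FGF9 (adjusted p = 6.04e-11) and 1.32 ± 0.067 with FGF8b (adjusted p = 9.57e-11).

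Both genes of proline synthesis rose. Aldh18a1, which encodes the mitochondrial enzyme that makes pyrroline-5-carboxylate from glutamate (chromosome 19, 40550257 to 40588463), had 52.6, 54 and 54 RPKM with FGF9 and 49.2, 50.1 and 55 with FGF8b, against 14.2, 13.9 and 14.5 in control. Its libraries lay close together within each group, and the change was 1.88 ± 0.053 with FGF9 (adjusted p = 8.81e-14) and 1.82 ± 0.053 with FGF8b (adjusted p = 1.54e-13). Pycr1, the mitochondrial reductase that completes proline (chromosome 11, 120635712 to 120643769), was at 25.3, 31 and 30.1 RPKM with FGF9 and 26, 27.3 and 28.9 with FGF8b, against 9.19, 7.53 and 8.40 in control. The rise was 1.72 ± 0.085 with FGF9 (adjusted p = 6.49e-11) and 1.66 ± 0.085 with FGF8b (adjusted p = 1.16e-10). Pck2, the mitochondrial phosphoenolpyruvate carboxykinase (chromosome 14, 55540266 to 55551242), had 85.7, 117.2 and 102.3 RPKM with FGF9 and 100.5, 95 and 103 with FGF8b, against 31.6, 27.9 and 26.5 in control. Among the Pck2 groups the FGF9 libraries were the most spread, and all lay above control (1.80 ± 0.095, adjusted p = 1.41e-10, and 1.78 ± 0.095 with FGF8b, adjusted p = 1.84e-10).

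The pair of genes that handle free ammonia did not rise. Glul, glutamine synthetase (chromosome 1, 153899944 to 153909723), stood at 8.88, 12.6 and 11.3 RPKM with FGF9 and 10.2, 10.4 and 10.9 with FGF8b, against 12.1, 10.9 and 10.6 in control, and the groups overlapped. Its change was -0.05 ± 0.107 with FGF9 and -0.09 ± 0.107 with FGF8b (adjusted p = 0.694 and 0.485), and the 95% interval of the FGF8b change ran from -0.32 to 0.14. Glud1, the mitochondrial glutamate dehydrogenase (chromosome 14, 34310727 to 34345265), had 72.2, 63.6 and 69.8 RPKM with FGF9 and 72, 71.1 and 73.2 with FGF8b, against 83.7, 87.4 and 89.3 in control. It was lower in every treated library, by a small amount (-0.34 ± 0.055 with FGF9, adjusted p = 5.15e-05, and -0.27 ± 0.055 with FGF8b, adjusted p = 0.000544).

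**Figure D2:**
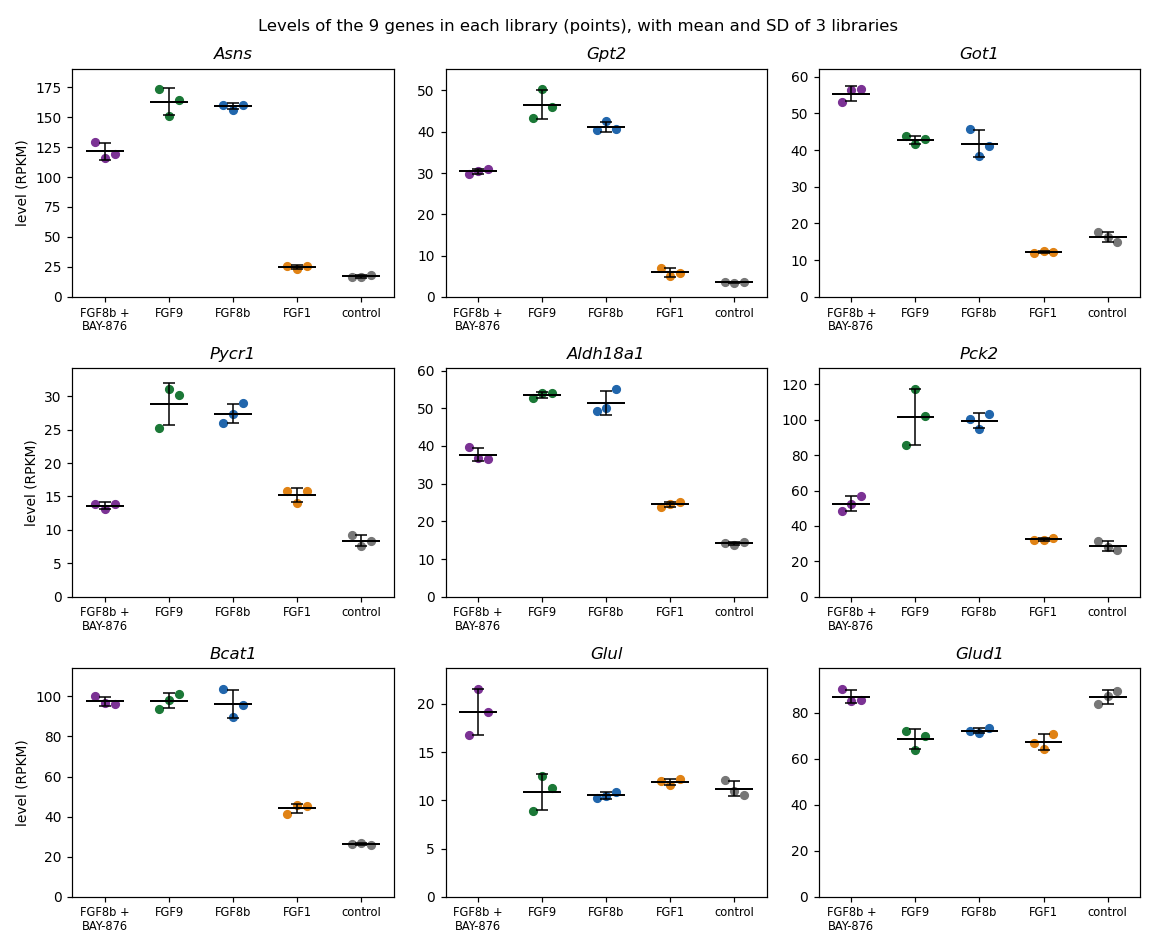
Level in RPKM of each of the 9 genes in every library (points) by group, with the mean (line) and SD (bar) of 3 libraries; each axis starts at 0. Asns and Gpt2 are low in control and FGF1, Pycr1 and Pck2 are lower with FGF8b plus BAY-876 than with FGF8b, and Glul is highest with FGF8b plus BAY-876.

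FGF1, which can bind all FGF receptors, was compared with the same control libraries. In limma, 5 of the 9 were higher than in control (Asns, Gpt2, Pycr1, Aldh18a1 and Bcat1), 2 were lower (Got1 and Glud1) and 2 did not pass (Pck2 and Glul), where 19.3% of all genes passed upward and 15.1% downward. With trimmed-mean scaling more genes passed downward (2441) than upward (2211), against 2095 and 2677 without it, and the 9 genes gave the same counts. Proline synthesis had the largest rises. Pycr1 was at 15.8, 14.1 and 15.8 RPKM with FGF1 (0.83 ± 0.085, adjusted p = 1.75e-06), and Aldh18a1 at 23.8, 24.7 and 25.2 (0.77 ± 0.053, adjusted p = 2.51e-08). Bcat1 had 41.2, 45.6 and 45.4 RPKM with FGF1 (0.73 ± 0.058, adjusted p = 9.37e-08). Gpt2 had 7.07, 4.93 and 5.80 RPKM (0.68 ± 0.092, adjusted p = 2.94e-05) and Asns 26, 23.1 and 25.5 (0.53 ± 0.065, adjusted p = 9.20e-06). Each of these 5 genes had passed upward in this same comparison, and their FGF1 libraries lay above every control library. The share of all genes that did so was not counted, so this is no separate result.

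Got1 was lower with FGF1 than in control, where it was higher with FGF8b and FGF9. It stood at 12, 12.4 and 12.2 RPKM with FGF1, below all control libraries (-0.41 ± 0.067, adjusted p = 0.000197). Glud1 fell to 66.7, 64.1 and 70.9 RPKM with FGF1 (-0.37 ± 0.055, adjusted p = 7.74e-05). Pck2 had 31.9, 31.9 and 33.4 RPKM with FGF1, a difference of 0.18 ± 0.095 from control that did not pass although the libraries did not overlap (adjusted p = 0.176, 95% interval -0.03 to 0.38). Glul had 12, 11.6 and 12.2 RPKM and overlapped with control (0.08 ± 0.107, adjusted p = 0.593).

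FGF8b was then set against FGF1 directly. The 7 genes that rose with FGF8b were all higher with FGF8b than with FGF1, and Glul and Glud1 did not pass, where 33.3% of all genes passed upward and 26.6% downward. The differences were 2.71 ± 0.092 for Gpt2 (adjusted p = 1.16e-12), 2.65 ± 0.065 for Asns (adjusted p = 2.48e-14), 1.73 ± 0.067 for Got1 (adjusted p = 5.22e-12) and 1.60 ± 0.095 for Pck2 (adjusted p = 8.69e-10). They were smaller for Bcat1 (1.12), Aldh18a1 (1.05) and Pycr1 (0.83). FGF9 and FGF8b did not differ for any of the 9 in limma, and none had an unadjusted p below 0.05, the lowest being 0.0826 for Gpt2 (0.17 ± 0.092, 95% interval -0.02 to 0.37). The other 95% intervals of FGF9 against FGF8b lay between -0.19 and 0.27. Few genes of the whole table passed in that comparison, 0.202% upward and 0.0937% downward.

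FGF8b plus BAY-876, called "with BAY-876" from here on, was compared with FGF8b. Of the 9 genes, 5 were lower than with FGF8b alone (Pycr1, Pck2, Aldh18a1, Gpt2 and Asns), 3 were higher (Glul, Got1 and Glud1), and Bcat1 did not pass. Over all genes, 22.5% passed upward and 34.8% downward, and with trimmed-mean scaling the numbers of genes were 3926 upward and 3963 downward, while the 9 genes gave the same counts.

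The largest falls were in Pycr1 and Pck2. Pycr1 had 13.9, 13.1 and 13.9 RPKM with FGF8b plus BAY-876, against 26, 27.3 and 28.9 with FGF8b, or 0.498 times its mean (-0.98 ± 0.085, adjusted p = 1.20e-07). Pck2 had 48.4, 52.3 and 57.1 RPKM with BAY-876, against 100.5, 95 and 103 with FGF8b (-0.92 ± 0.095, adjusted p = 8.53e-07). Neither group pair overlapped. Aldh18a1 had 39.6, 36.7 and 36.6 RPKM with BAY-876, against 49.2, 50.1 and 55 with FGF8b (-0.44 ± 0.053, adjusted p = 3.97e-06). Gpt2 had 29.9, 30.4 and 31.1 RPKM with BAY-876, against 40.5, 42.6 and 40.6 (-0.43 ± 0.092, adjusted p = 0.000909), and Asns 129.5, 115.9 and 119.5, against 160.4, 156 and 160.5 (-0.39 ± 0.065, adjusted p = 0.000107). All 5 genes were still above control with BAY-876, by 2.96 for Gpt2, 2.80 for Asns, 1.38 for Aldh18a1, 0.86 for Pck2 and 0.68 for Pycr1.

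The genes that rose with BAY-876 were glutamine synthetase, glutamate dehydrogenase and the cytosolic aspartate aminotransferase. Glul had 16.7, 21.5 and 19.1 RPKM with FGF8b plus BAY-876, against 10.2, 10.4 and 10.9 with FGF8b, or 1.82 times its mean (0.83 ± 0.107, adjusted p = 8.35e-06). Against control, Glul passed with FGF8b plus BAY-876 (0.74 ± 0.107, adjusted p = 1.35e-05) and not with FGF9, FGF8b or FGF1. Got1 had 53, 56.5 and 56.6 RPKM with BAY-876, against 45.6, 38.5 and 41.1 with FGF8b (0.41 ± 0.067, adjusted p = 9.48e-05). Its order over the groups was FGF8b plus BAY-876, then FGF9 and FGF8b, which did not differ, then control, then FGF1. Glud1 had 90.2, 85.3 and 85.4 RPKM with BAY-876, against 72, 71.1 and 73.2 with FGF8b (0.27 ± 0.055, adjusted p = 0.000630). Its difference from control was 0.00 ± 0.055 (95% interval -0.11 to 0.12). Bcat1 had 100.2, 96.8 and 96 RPKM with BAY-876, within the range of FGF8b (0.02 ± 0.058, 95% interval -0.10 to 0.15). Against control, 8 of the 9 genes were higher with FGF8b plus BAY-876, where 36.8% of all genes passed upward and 35.9% downward.

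**Figure D3:**
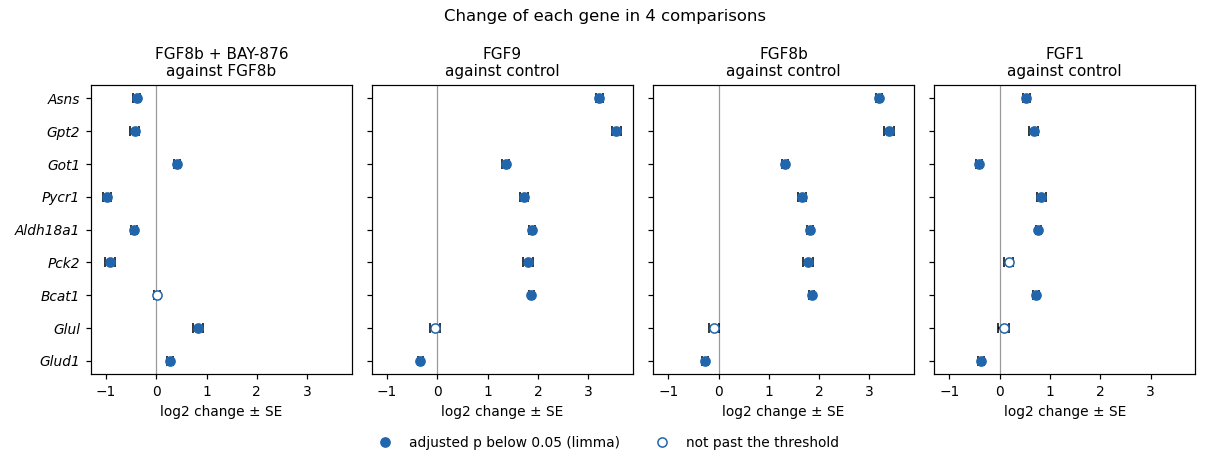
Log2 change ± SE of each gene in FGF8b plus BAY-876 against FGF8b and in FGF9, FGF8b and FGF1 against control; filled points passed an adjusted p of 0.05 in limma and open points did not. With BAY-876 Pycr1 (-0.98) and Pck2 (-0.92) lie farthest to the left and Glul (0.83) farthest to the right, and Got1 passed the threshold on the left of 0 with FGF1 (-0.41) and on the right of 0 with FGF8b (1.32).

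Of the 9 genes, 5 have partners that encode the same activity, often in the other compartment of the cell. Gpt, the cytosolic alanine aminotransferase, had 1.11, 1.56 and 1.53 RPKM with FGF8b plus BAY-876, 1.38, 1.54 and 1.17 with FGF8b, and 2.06, 2.04 and 2.18 in control. It fell with FGF8b (-0.48 ± 0.167, adjusted p = 0.0194) while Gpt2 rose. In limma Gpt did not pass with FGF9 (-0.35 ± 0.167, adjusted p = 0.0788) or FGF1 (-0.35 ± 0.167, adjusted p = 0.121). The ratio of Gpt2 to Gpt was 30.6 ± 3.62 with FGF8b, 3.96 ± 1.14 with FGF1 and 1.66 ± 0.0624 in control (mean ± SD, n = 3). Got2, the mitochondrial aspartate aminotransferase, stood above Got1 in every library. It rose to 83.9, 78.1 and 84.6 RPKM with FGF8b, against 50, 48.7 and 44.9 in control (0.77 ± 0.050, adjusted p = 1.79e-09), and differed from control by 0.00 ± 0.050 with FGF1. The ratio of Got1 to Got2 was 0.764 ± 0.0205 with FGF8b plus BAY-876, 0.507 ± 0.0319 with FGF8b, 0.254 ± 0.00236 with FGF1 and 0.341 ± 0.0103 in control.

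Bcat2, the mitochondrial branched-chain aminotransferase, did not pass with FGF8b (0.23 ± 0.103, adjusted p = 0.0663) and rose with BAY-876 against FGF8b (0.40 ± 0.103, adjusted p = 0.00389), where Bcat1 did not pass. Pycrl, a reductase like Pycr1, rose with FGF8b by 0.57 ± 0.126 (adjusted p = 0.000986) and fell with BAY-876 against FGF8b (-0.49 ± 0.126, adjusted p = 0.00364). The ratio of Pycr1 to Pycrl was 0.950 ± 0.166 with BAY-876, 1.34 ± 0.185 with FGF8b, 1.16 ± 0.0913 with FGF1 and 0.614 ± 0.107 in control. Pck1, the cytosolic partner of Pck2 and a gene of glucose-making tissues and of fat, was listed at 0 in all 15 libraries. Ratios are between RPKM values, which are per length, but they depend on which transcript line stands for each gene.

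**Figure D4:**
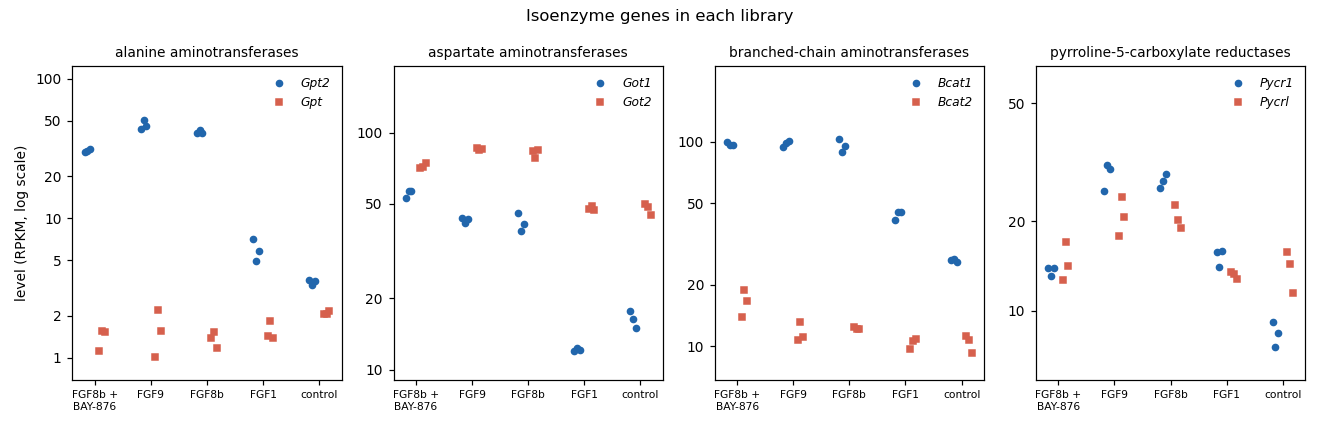
Level in RPKM on a log scale of 4 genes (circles) and 1 partner of each (squares) in every library, by group. Gpt2 is far above Gpt in FGF9 and FGF8b and near it in control. On the transcript lines used, Got1 is below Got2 and Bcat1 above Bcat2 in all groups. On the same lines, the mean ratio of Pycr1 to Pycrl is 1.34 in FGF8b and 0.614 in control.

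Of 45 other genes of these pathways, 43 were in the table and 39 were tested. With FGF8b against control, 22 of the 39 were higher (56.4%) and 5 lower (12.8%), beside 37.8% and 26.6% of all genes, with a median of 0.34. With trimmed-mean scaling 19 were higher and 7 lower. Ass1, which joins citrulline to aspartate on the way to arginine, rose the most (59 RPKM with FGF8b and 14.9 in control, 1.95 ± 0.084, adjusted p = 1.37e-11), followed by Odc1, the first enzyme of polyamine synthesis (68.5 and 20.4 RPKM, 1.72 ± 0.046). Adssl1 (1.02) and Pfas (0.94), which use aspartate and glutamine for purines, were next. Ppm1k, the phosphatase that activates breakdown of branched-chain keto acids, fell to 1.27 RPKM with FGF8b, against 4.44 in control (-1.48 ± 0.092, adjusted p = 1.06e-09). Oat, the ornithine aminotransferase that links ornithine to proline and glutamate, fell to 64.1 RPKM, against 125 in control (-0.96 ± 0.047), as did Aspa (-0.79) and Abat (-0.66), which break down N-acetylaspartate and GABA.

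FGF9 gave 21 higher (53.8%) and 5 lower (12.8%) of the 39 against control, beside 38.7% and 27.0% of all genes. For FGF9, trimmed-mean scaling gave 20 higher and 8 lower. FGF1 gave 7 higher (17.9%) and 11 lower (28.2%), beside 19.3% and 15.1% of all genes, with a median of -0.01. Ass1, like Got1, was lower with FGF1 (10.6 RPKM, -0.47 ± 0.084, adjusted p = 0.000409). With BAY-876 against FGF8b, 10 of the 39 were higher (25.6%) and 13 lower (33.3%), shares near the 22.5% and 34.8% of all genes, and with trimmed-mean scaling 13 were higher and 9 lower. Bckdhb, a subunit of the branched-chain keto acid dehydrogenase, rose (19.6 RPKM with BAY-876 and 11.5 with FGF8b, 0.75 ± 0.119), as did Cad, which starts pyrimidine synthesis from glutamine and aspartate (0.72 ± 0.084), Asl, which splits argininosuccinate (0.52 ± 0.093), and Pfas (0.43 ± 0.073). Asrgl1, an asparaginase (-0.91 ± 0.105), and Nit2, an omega-amidase (-0.80 ± 0.086), fell, as did Pycrl and Ass1 (-0.39 ± 0.084). The largest adjusted p of these named genes was 0.00364.

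**Figure D5:**
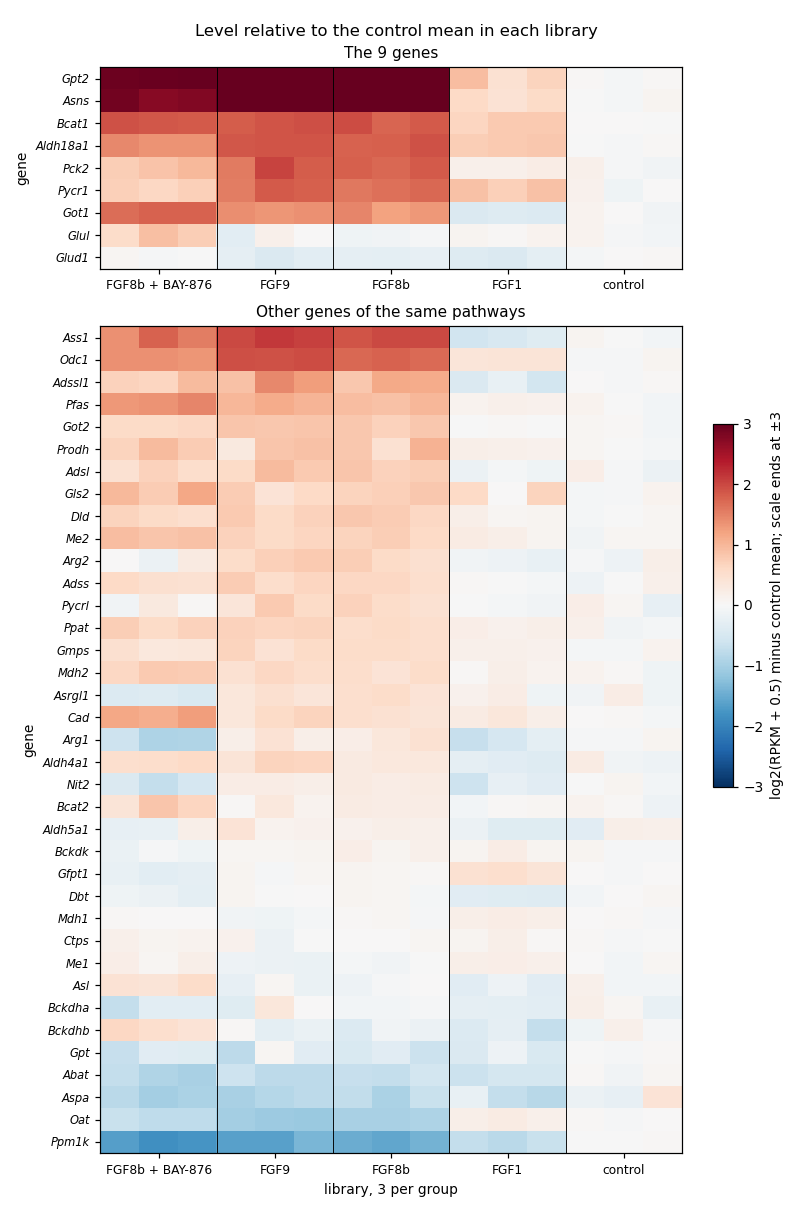
Level of each gene in every library, as log2(RPKM + 0.5) minus the mean of the control libraries (red higher, blue lower, colours end at ±3), for the 9 genes (top) and other tested genes of the pathways (bottom), both ordered by their change with FGF8b. Gpt2 and Asns lead the top panel, and Ass1 and Odc1 lead the bottom one, with Ppm1k and Oat at its end.

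The stress genes Atf4, Ddit3, Trib3 and Chac1 were read beside the 9. Atf4 had a mean of 306 RPKM with FGF8b plus BAY-876, 316 with FGF9, 313 with FGF8b, 113 with FGF1 and 79.7 in control. With FGF8b against control the changes were 1.97 for Atf4, 2.16 for Ddit3, 4.03 for Trib3 and 3.97 for Chac1. All 4 passed upward, where 37.8% of all genes did, and they were chosen with earlier results of these data known. BAY-876 against FGF8b gave -0.03 ± 0.043 for Atf4 (95% interval -0.12 to 0.06), 0.10 ± 0.078 for Ddit3 and 0.15 ± 0.126 for Chac1, none of which passed, while Trib3 fell (-0.57 ± 0.094, adjusted p = 9.59e-05). Ddit3, which encodes the stress factor CHOP, fell with FGF1 (26.7 RPKM with FGF1 and 42.5 in control, -0.66 ± 0.078), as did Got1 and Glud1 among the 9. The other stress genes rose with FGF1: Atf4 (0.50 ± 0.043), Chac1 (0.86 ± 0.126) and Trib3 (0.28 ± 0.094).

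Across the 15 libraries, the genes whose levels followed a member most closely, by Pearson's r of log2(RPKM + 0.5), differed between members. These libraries share treatment groups, so r mostly reflects group means and is given as a description. Asns and Gpt2 were closest to the mitochondrial folate enzyme gene Mthfd2 (r = 0.999 and 0.996). Got1 was closest to Slc25a33, Atf3 and Tomm20 (0.994 to 0.995). Bcat1 was closest to Mthfd1l (0.996), Aldh18a1 to Spp1 (0.996), Pycr1 to Crabp1 (0.989) and Pck2 to Ank1 (0.990). Glul followed Fam129b most closely (0.976) and Glud1 followed Eda2r (0.949). Among the 9, r was 0.996 between Asns and Gpt2, 0.528 between Got1 and Pycr1 and -0.695 between Pycr1 and Glud1.

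The choice of transcript line changed levels more than changes. The Pycr1 line with the highest mean is a short transcript, and the RefSeq line gave 8.22 RPKM with FGF8b and 2.55 in control. For Bcat1 a RefSeq line gave 24.9 and 6.86 RPKM. The lines used for Got1, Aldh18a1 and Bcat1 are annotated in GENCODE as a nonsense-mediated decay, a retained intron and a processed transcript. Over the 5 to 11 lines of a gene, the change with FGF8b ran from 3.10 to 3.30 for Asns, 1.31 to 1.34 for Got1, 1.38 to 1.89 for Pycr1 and 1.31 to 1.81 for Pck2. With BAY-876 against FGF8b it was -0.78 in the least changed line of Pycr1, and ran from -0.91 to -0.64 for Pck2 and 0.73 to 0.96 for Glul. The lines of a gene share reads. Read numbers could be worked out from an Ensembl line for 8 of the genes, all but Pck2, and that line held at least 72 reads in every library. For Asns, Gpt2 and Glul it is not the line whose levels are given.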

How the data were processed

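RNA sequencing was done on 15 libraries of total RNA, made with the TruSeq kit v2 per the labels' protocols. The submitters' processing notes name CASAVA and bcl2fastq; aligner, build, annotation and strand setting: not given in the sources used here. The authors deposited 1 table of 168326 transcript lines with a decimal comma and no named unit. For 46002 Ensembl lines with a GENCODE vM21 length, 94.1% to 94.8% of low values, once multiplied by length, came out as whole reads (within 0.05 read) under a single depth per library, so the deposited values were read as RPKM with 27.01 to 42.64 M reads per library.

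Lines with a symbol (145154) gave 29072 genes. Levels were log2(RPKM + 0.5) of the 13869 genes with at least 0.5 RPKM in 3 libraries, without further scaling. The fit was limma 3.58.1 in R 4.3.3 over all 5 groups, with empirical Bayes moderation, a mean-variance trend and 10 residual degrees of freedom, tested on simulated data. P-values were adjusted by Benjamini-Hochberg within each comparison, with a threshold of 0.05. Overlap between groups refers to single libraries.

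The 9 genes and the gene lists were chosen with earlier results of these data known. From the pathway list, up to 4 genes per direction with the largest change were named (past the threshold, no overlap, at least 1 RPKM in 1 group), for FGF8b against control and for BAY-876 against FGF8b. Partners of members were named too. Ass1 with FGF1 was named after its values were seen. Some results are not reported here. Up to 3 closest genes per member were found. Gene positions are from GENCODE vM21, promoters from RefSeq GRCm38.p6, and neither need be the annotation of the table. The main fit did not pair libraries by replicate number, and whether the numbers mark pairs is not known. Alternatives were another pseudocount, no filter, scaling, RefSeq lines, 2-group fits, a replicate block and leaving out each library.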

Additional observations from a re-analysis of the deposited data

How the results depend on the processing

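Of 819 single-gene results under the alternatives, 809 kept their side of the threshold and showed no opposite sign in rounded values. Glud1 in FGF8b plus BAY-876 against control rounded to 0.00, so its direction could not be compared. It ran from -0.02 to 0.02 when each library was left out. In 6 of the 7 comparisons the count of the 9 genes called was the same under every alternative: 8 with FGF8b, FGF9 and FGF8b plus BAY-876 against control and with BAY-876 against FGF8b, 7 with FGF1 against control, and 0 with FGF9 against FGF8b. FGF8b against FGF1 had 7, and 8 with RefSeq lines alone and in the fit of those 2 groups, where Glul passed too.

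The deviations of 10 of 30 same-numbered pairs of libraries correlated above 0.1, with a range of -0.443 to 0.534. Pairs with different numbers were not compared, so these values cannot tell whether replicate numbers pair the libraries. With the replicate block, 8 of the 9 genes and 9016 of all genes passed with FGF8b against control, beside 8931 of all genes without it, and no count of the 9 genes changed.

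FGF9 against FGF8b had 41 genes called in the whole table, 27 with a pseudocount of 0.1, 26 with no filter and 70 with RefSeq lines alone. A fit of those 2 groups alone called 0 in limma, with 804 genes at an unadjusted p below 0.05. Leaving out a library gave 6 to 35 genes: 10 without FGF9 replicate 2, 6 without FGF9 replicate 3, and 10, 7 and 17 without FGF8b replicates 1, 2 and 3. The cause was not tested.

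Changes that reversed were below the threshold in every fit. When each library was left out, FGF9 against FGF8b ran from -0.01 to 0.09 for Asns, -0.09 to 0.14 for Pck2, -0.07 to 0.17 for Glul, -0.02 to 0.11 for Got1 and -0.03 to 0.08 for Bcat1. Glul ran from -0.15 to 0.08 with FGF9 against control, and Bcat1 from -0.03 to 0.08 with BAY-876 against FGF8b. Glul was lower with FGF8b than with FGF1 past the threshold with RefSeq lines (-0.18, adjusted p = 0.0416 in limma) and in the fit of those 2 groups (-0.17, adjusted p = 0.0253).

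Read numbers were worked out for 8 of the genes, from an Ensembl line that need not be the line used; Pck2 had none. P-values cover only the spread between libraries whose separate origin the labels do not give.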
